A study of Mus musculus with 20 samples.

Results

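Erbb2 and 9 genes that lie beside it on mouse chromosome 11 were followed through 20 mammary RNA libraries: Med1, Cdk12, Ppp1r1b, Stard3, Tcap, Pgap3, Erbb2, Mien1, Grb7 and Ikzf3, in chromosome order. They are 10 of the 45318 genes in the count tables. They were selected on their position between Med1 and Ikzf3 and on their depth-scaled read counts (CPM) in the Neu-NT tumor sections, which were known to be high when the set was named. Their levels in Neu-NT tumors are therefore a description, without a test.

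Erbb2 (also called Neu or Her2) encodes a receptor tyrosine kinase of the epidermal growth factor receptor family. It has no known soluble ligand of its own and signals by pairing with the other ErbB receptors, whose ligands include the EGF-like factors and the neuregulins. Activated ErbB receptors recruit adaptor proteins and drive the MAP kinase and PI3 kinase cascades. In human breast cancer ERBB2 is often amplified together with its neighbors, among them GRB7, STARD3, PGAP3 and MIEN1. RNA counts, as used here, do not measure DNA copy number.

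All mice were of the FVB strain. Wild type (WT) mammary organoids, fragments of gland kept in Matrigel with FGF2 for 6 days, were sequenced as 3 libraries. The MMTV-PyMT genotype expresses the polyoma virus middle T oncogene from the mouse mammary tumor virus (MMTV) promoter, which is active mainly in mammary epithelium. From it came 3 libraries of 30 µm tumor cryosections, 3 of organoids on the day of preparation (day 0), 3 of organoids after 6 days and 2 more of organoids with no day in the title but the same 6 days of culture (undated). MMTV-Neu-NDL mice carry an activated Neu receptor transgene behind the same viral promoter, and 3 libraries were made of their organoids, also cultured for 6 days. The last 3 libraries came from 30 µm tumor cryosections of the genotype MMTV-Cre;Flox-Neo-Neu-NT. In the Flox-Neo-Neu-NT allele another activated Neu cDNA sits under the control of the Erbb2 gene's own promoter and is released when Cre removes a neo cassette, so here the viral promoter drives Cre and not Neu. Labels do not say whether replicates came from separate animals, so each p-value reflects only the variation among these samples, which may be technical.

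Total gene counts ran from 17478357 to 48341438 per library. Krt8, Krt18 and the other luminal epithelial markers were present in every library, with summed levels between 3120 and 9568 CPM. A pair of libraries stood apart. The library titled PyMT organoids day 6 replicate 3 correlated with PyMT tumor section replicate 3 at r = 0.991 over genes and with the other day 6 organoids at 0.906 and 0.868. Its macrophage markers summed to 203 CPM, against 213 to 315 CPM in the PyMT sections. Neu-NT replicate 3 correlated with Neu-NT replicates 1 and 2 at 0.909 and 0.904, and those replicates correlated with each other at 0.98. The smallest chi-square per degree of freedom over genes was 41.3 between libraries of a group (Neu-NT replicates 1 and 2). It was 34.4 for the PyMT pair numbered 3. Both are far above sampling noise, but this cannot tell separate preparations of 1 tumor from separate tumors. All 20 were entered as separate samples, and whether any share a tumor is not known.

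Sequence just upstream of a pair of these genes is shown first, because Erbb2 was high in both Neu models and Stard3 in Neu-NT alone. The Stard3 stretch lies inside a gap of 572 bp after the end of Ppp1r1b. In Neu-NT replicate 3 Stard3 was raised and Ppp1r1b was not. Ppp1r1b was low in most libraries and Tcap, beyond Stard3, was not raised either, so no boundary is placed at the gap. Each stretch shown is the 250 bases before the RefSeq start on GRCm38.p6, 5′ to 3′ on the gene's strand. Capitals mark a GC box (GGGCGG or its reverse complement, bound by Sp1-type factors) or a CCAAT box (CCAAT or its reverse complement).
Erbb2, chr11:98412234-98412483, plus strand: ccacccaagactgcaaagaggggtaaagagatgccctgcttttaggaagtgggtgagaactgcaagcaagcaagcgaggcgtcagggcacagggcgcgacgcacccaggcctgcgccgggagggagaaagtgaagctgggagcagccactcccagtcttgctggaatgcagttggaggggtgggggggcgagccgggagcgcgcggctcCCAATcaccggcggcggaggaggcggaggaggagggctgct
Stard3, chr11:98358118-98358367, plus strand: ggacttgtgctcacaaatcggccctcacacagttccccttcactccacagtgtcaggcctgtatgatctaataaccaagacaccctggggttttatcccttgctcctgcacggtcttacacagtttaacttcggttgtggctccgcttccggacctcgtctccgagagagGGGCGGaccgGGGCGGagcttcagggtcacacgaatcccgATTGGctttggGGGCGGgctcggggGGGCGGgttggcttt

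The Erbb2 stretch held 1 CCAAT box, at position -41 from the start, and no GC box. The Stard3 stretch held 4 GC boxes, at -80, -70, -29 and -15, and 1 CCAAT box at -40. RefSeq windows were found for 6 of the 10 genes. Among the other 4, Cdk12 and Pgap3 each held 2 GC boxes, Med1 held 1 GC box and 1 CCAAT box, and Mien1 held 2 CCAAT boxes. None of the 6 held the AP-2 letters GCCNNNGGC. Of 32817 windows of the same length, 32.7% held a GC box, 33.8% a CCAAT box and 13.7% the AP-2 letters, on either strand. These are matches of letters and no binding was measured.

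The receptor gene itself was high in both Neu models and flat elsewhere. Erbb2 (ENSMUSG00000062312.5, chr11:98412470-98437716, plus strand, mm10) was at 5615, 4459 and 8515 CPM in Neu-NDL organoids 1 to 3 and at 860, 1077 and 195 CPM in Neu-NT sections 1 to 3. CPM use library sizes adjusted by the trimmed mean of M-values. WT organoids had 90.3, 94.1 and 98.0 CPM. The PyMT sections had 110, 68.5 and 110 CPM, PyMT organoids 73.7, 77.0 and 102 CPM at day 0 and 104, 146 and 108 CPM at day 6, and the undated PyMT organoids 110 and 95.2 CPM. All 6 Neu libraries thus lay above the other 14, and every Neu-NDL library lay above every Neu-NT library. The 11 PyMT libraries, at 68.5 to 146 CPM, spanned the WT range. Reads from a Neu transgene can count on Erbb2, and how much of that RNA does so is not known from the count tables, so the level is not that of the native gene alone.

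Counts placed on the 10 genes together showed the same groups. They summed to between 349 and 575 CPM in the 14 libraries without a Neu allele. Neu-NDL organoids had 5877, 4762 and 8842 CPM, nearly all of it Erbb2. The Neu-NT sections had 18912, 17880 and 1454 CPM, of which Erbb2 was a minor share in each library.

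**Figure D1:**
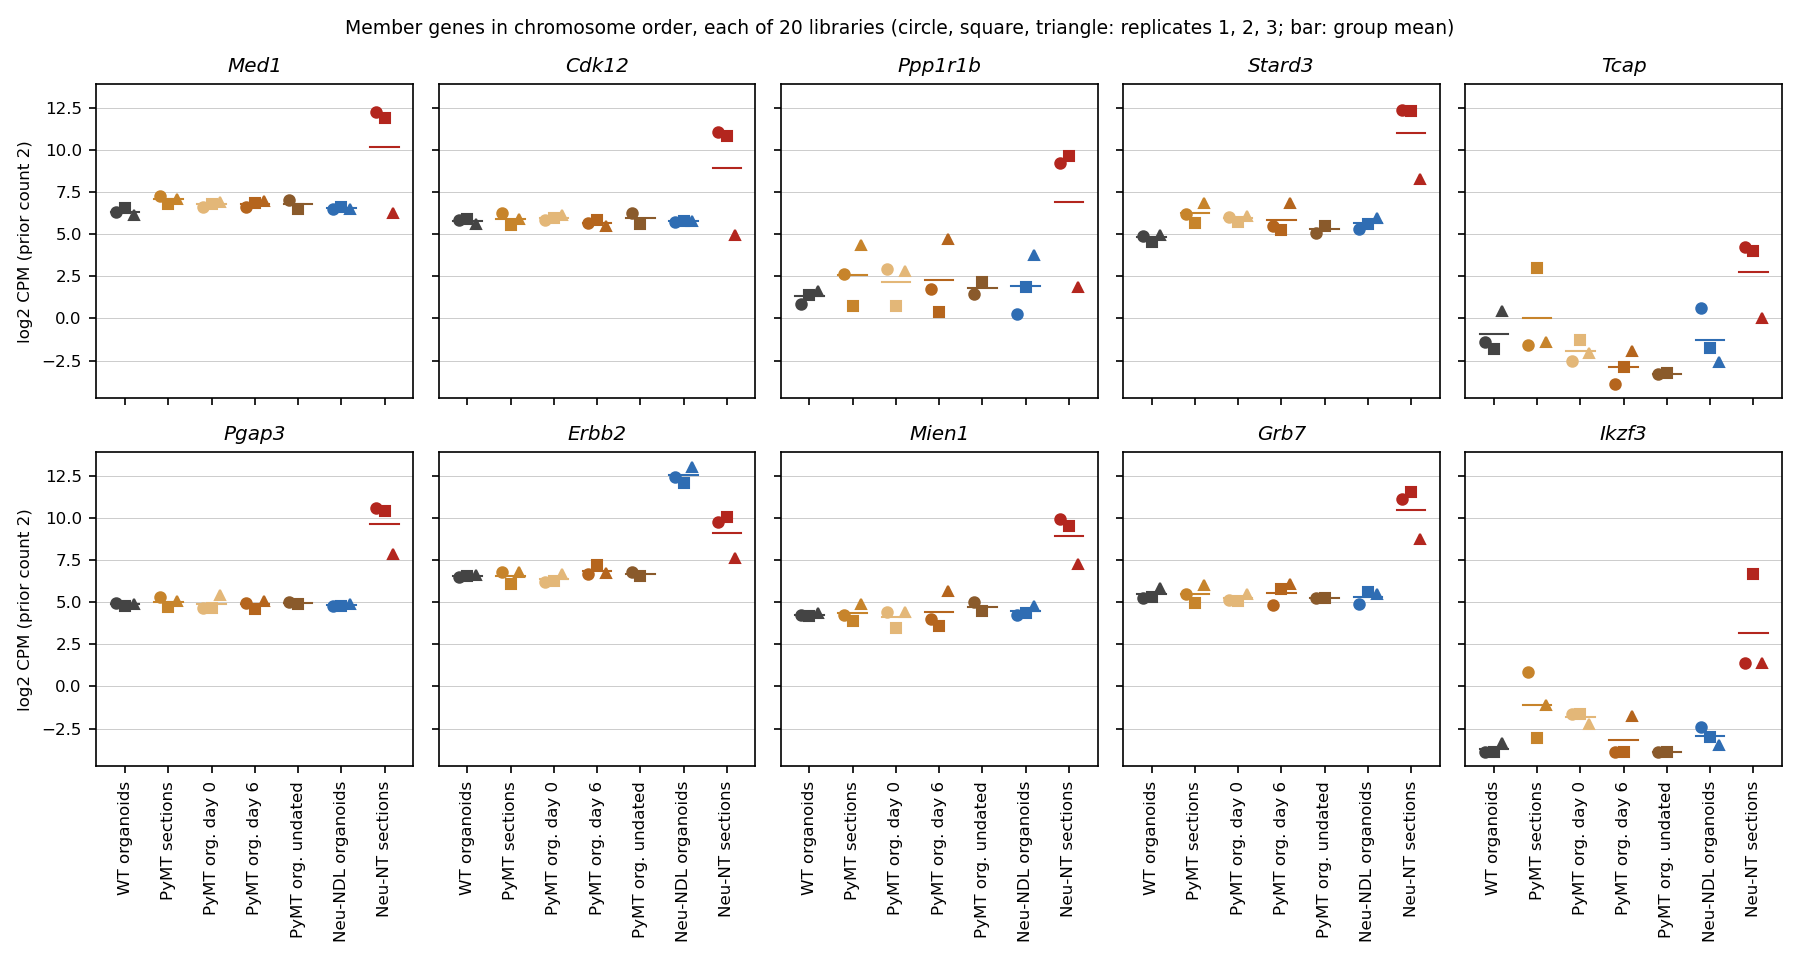
Level of each gene (log2 CPM with a prior count of 2, vertical axis) in each of the 20 libraries by group (horizontal axis); symbols are replicates 1, 2 and 3 and bars are group means of log2 CPM. Erbb2 is high in the Neu-NDL and Neu-NT libraries, and the other 9 genes reach their highest level in a Neu-NT library, replicate 3 being lower than replicates 1 and 2 for every gene but Ikzf3, where it is level with replicate 1.

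In Neu-NT sections 1 and 2 the neighbors stood further above the PyMT sections than Erbb2 did, except Ikzf3 in section 1, and in section 3 Stard3, Pgap3, Mien1, Grb7 and Ikzf3 did. Grb7 (ENSMUSG00000019312.7, chr11:98446394-98455373, plus strand), an SH2 adaptor that binds phosphorylated ErbB2, was at 2285, 2951 and 436 CPM against 28.2 to 68.6 CPM in the other 17 libraries. Mien1 (ENSMUSG00000002580.7, chr11:98437708-98438991, minus strand), a small membrane-anchored protein linked to cell migration, was at 998, 730 and 157 CPM against 11.1 to 50.1 CPM. Both lie downstream of Erbb2 and both were above every other library in all 3 Neu-NT sections. Mien1 overlaps the end of Erbb2 by 9 bp and the antisense gene Gm12352 (11.7, 11.8 and 0.984 CPM), and with the strand setting of the counting not given in the sources used here, reads of the 2 cannot be told apart.

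Upstream of Erbb2, Stard3 and Pgap3 were also lowest in replicate 3 among the Neu-NT sections. Stard3 (ENSMUSG00000018167.7, chr11:98358368-98381112, plus strand), a cholesterol-binding protein of late endosomes, was at 5403, 5097 and 315 CPM against 23.7 to 118 CPM in the other 17 libraries. Pgap3 (ENSMUSG00000038208.10, chr11:98388677-98400490, minus strand), which remodels the lipid part of GPI anchors, was at 1588, 1375 and 234 CPM against 24.7 to 43.3 CPM. Neither gene overlapped between Neu-NT and the rest. Tcap (ENSMUSG00000007877.2, chr11:98383811-98384953, plus strand), the titin cap protein of muscle, lies between them and was at 18.9, 16.2 and 0.932 CPM, with replicate 3 inside the 0 to 7.84 CPM of the other libraries.

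The genes farthest upstream were raised in Neu-NT replicates 1 and 2 and not in replicate 3. Med1 (ENSMUSG00000018160.12, chr11:98152154-98193293, minus strand), a Mediator subunit that contacts nuclear receptors, was at 5017 and 3880 CPM in replicates 1 and 2 and at 78.0 CPM in replicate 3, within the 72.4 to 156 CPM of the other libraries. Cdk12 (ENSMUSG00000003119.11, chr11:98203059-98278504, plus strand), a kinase of the RNA polymerase II tail, was at 2145, 1832 and 31.4 CPM, so that replicate 3 lay below the 44.8 to 78.1 CPM of the other 17. Ppp1r1b (ENSMUSG00000061718.9, chr11:98348404-98357796, plus strand), which encodes the phosphatase inhibitor DARPP-32, was at 596, 821 and 3.57 CPM, with replicate 3 inside the range of 1.11 to 26.4 CPM elsewhere. Ppp1r1b and Med1 overlap the annotated genes 1700003D09Rik and Gm11604, to which the limit on strand applies as well.

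At the far end, Ikzf3 (ENSMUSG00000018168.8, chr11:98464902-98546031, minus strand), a lymphocyte transcription factor, was at 2.57, 102 and 2.54 CPM. Replicate 2 stood alone here, while replicates 1 and 3 were close to the highest of the other libraries, PyMT section 1 at 1.71 CPM. In whole tissue sections, fewer cells of a type and less RNA per cell cannot be told apart.

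On the log2 scale, each Neu-NT library was set against the mean of the 3 PyMT sections, the other tumor sections in the series. Grb7 lay at 5.64, 6.01 and 3.25 in replicates 1 to 3, Mien1 at 5.60, 5.15 and 2.93, Pgap3 at 5.59, 5.39 and 2.83 and Stard3 at 6.14, 6.06 and 2.04. Erbb2 lay lower, at 3.19, 3.52 and 1.05. Med1 was at 5.22, 4.85 and -0.79, Cdk12 at 5.14, 4.92 and -0.95 and Ppp1r1b at 6.63, 7.10 and -0.72. The median over the 9 neighbors was 5.59, 5.39 and 2.04. A log2 ratio above 3 was reached by 1.61%, 1.76% and 1.42% of all 18698 tested genes in replicates 1, 2 and 3.

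By rank, all 3 Neu-NT sections lay above all 3 PyMT sections for 6 of the 10 genes, where the share over all tested genes was 12.9%. They lay above all other 17 libraries for 5 genes (background 1.98%): Stard3, Pgap3, Mien1, Grb7 and Ikzf3. Replicates 1 and 2 were both above the other 18 libraries for all 9 neighbors (background 6.21%). Replicate 3 was the highest of the 20 for none of them (background 11.2%). The choice of these genes on Neu-NT values bears on each of these counts, and nothing is read from them.

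The first raised gene on the map differed between the Neu-NT libraries, and the labels do not say whether these are separate tumors. In replicates 1 and 2 it began at Med1: Fbxl20, an F-box gene whose annotation ends 1751 bp before Med1, was at 50 and 56.6 CPM, below the 70.4 to 140 CPM of the other 17 libraries. In replicate 3 Stard3 was the first raised gene, after Ppp1r1b, and Tcap behind it was not raised. The next genes out, Stac2, Rpl19, Cacnb1 and Arl5c, had log2 ratios between -0.90 and 1.64 in replicates 1 and 2 and between -2.76 and 0.78 in replicate 3.

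Beyond Ikzf3, Zpbp2, a sperm protein gene, was at 5.97, 5.27 and 2.74 CPM against 0 to 0.562 CPM in the other 17 libraries, a low level in all. The next gene, Ormdl3, an endoplasmic reticulum regulator of sphingolipid synthesis, went the other way round: 38.4 and 44.4 CPM in replicates 1 and 2 and 856 CPM in replicate 3, with 50.3 to 192 CPM elsewhere. Gsdma, a gasdermin gene farther on, was listed at 0 CPM in replicates 1 and 2 and at 6.89 CPM in replicate 3, within the 0 to 14.0 CPM of the rest. Gm12355 was at 0.302, 0.451 and 0.311 CPM in replicates 1 to 3, against 0.0671 to 0.439 CPM, and Gsdma3 at 0.189, 0 and 0.621 CPM, against 0 to 2.08 CPM. Past Zpbp2, Ormdl3 was the one of these genes at which replicate 3 lay above all other libraries.

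Between Med1 and Ikzf3 (chr11:98152154-98546031, 394 kb) the tables list 21 annotated genes, of which 18 passed the filter on low counts. The 8 that are not among the 10 genes described were all low. Mir5119, whose hairpin lies within the Cdk12 locus, had 16.6, 14.7 and 0.207 CPM in Neu-NT replicates 1 to 3 and at most 0.311 CPM elsewhere. Gm20644, downstream of Cdk12, had 10.3, 9.64 and 0.155 CPM. Neurod2, a neuronal transcription factor gene at 0 in the other 17 libraries, had 0.643, 0.360 and 0 CPM. Pnmt, the adrenaline-forming enzyme gene, had 0.983, 0.766 and 0.0518 CPM. All 8 were higher in replicates 1 and 2 than in replicate 3, and Gm11604 was the one among them that differed widely between replicates 1 and 2 (0.567 and 7.12 CPM). Polyadenylated RNA was selected, so counts on a microRNA hairpin inside a long gene are not a measure of the mature microRNA.

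**Figure D2:**
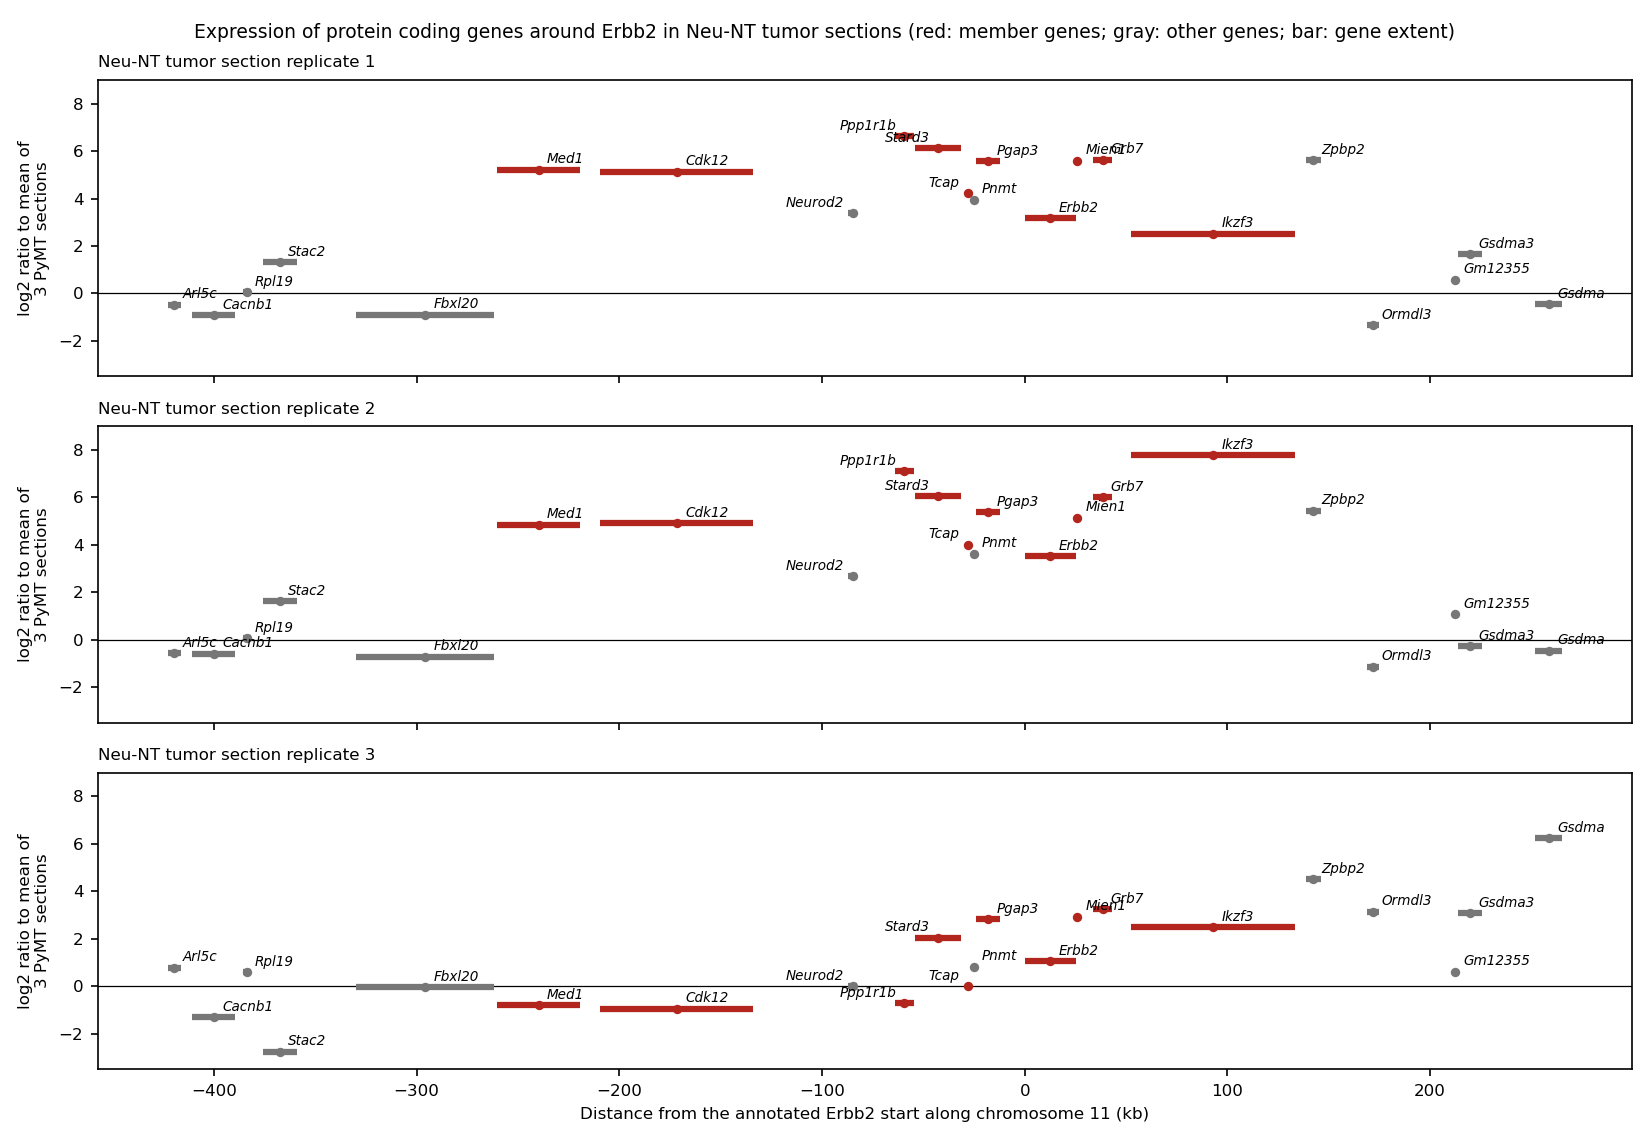
Log2 ratio of each Neu-NT tumor section to the mean of the 3 PyMT tumor sections (vertical axis) for the tested protein coding genes around Erbb2, by distance from the annotated Erbb2 start in kb (horizontal axis); horizontal bars give each gene's extent, red marks the 10 genes described and gray the others. Replicates 1 and 2 are raised from Med1 to Zpbp2 and have Ormdl3 at -1.34 and -1.13. Replicate 3 is at most at 0.78 up to Ppp1r1b and has Ormdl3 at 3.14. From Stard3 to Zpbp2 replicate 3 is raised apart from Tcap at -0.01 and Pnmt at 0.82 (0.0518 CPM).

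Levels were compared between genes as CPM per kb of annotated exon. In WT organoids the order ran from Mien1 at 25.6 ± 1.63 CPM per kb (SD, n = 3), Erbb2 at 18.1 ± 0.731 and Grb7 at 13.5 ± 3.12, through Med1 at 9.39 ± 1.26, Pgap3 at 9.08 ± 0.685 and Stard3 at 8.06 ± 1.21, to Cdk12 at 4.70 ± 0.511. Med1, Pgap3 and Stard3 did not differ from each other beyond their spread. Ppp1r1b (0.842 ± 0.214) and Tcap (0.638 ± 0.629) were lower and overlapped, and Ikzf3 had a single read in 1 of the 3 libraries. In Neu-NT replicate 1 the order was Stard3 at 1519 CPM per kb, Mien1 at 1336, Grb7 at 679, Med1 at 573 and Pgap3 at 489. Ppp1r1b at 203, Cdk12 at 183 and Erbb2 at 165 followed, above Tcap and Ikzf3. In replicate 3 it was Mien1 at 210, Grb7 at 130, Stard3 at 88.7, Pgap3 at 72.1 and Erbb2 at 37.5 CPM per kb.

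Grb7 and Stard3 relative to Erbb2 lay on opposite sides of the other libraries in the 2 Neu models. This did not extend to every neighbor: in Neu-NT replicate 3, Med1 was at 8.91 and Cdk12 at 2.67 CPM per kb, both below Erbb2 and below their own WT means. Grb7 over Erbb2 per kb was between 0.420 and 0.985 in the 14 libraries without a Neu allele. It was 4.11, 4.24 and 3.46 in Neu-NT sections 1 to 3 and 0.00818, 0.0171 and 0.00817 in Neu-NDL organoids 1 to 3. Stard3 over Erbb2 per kb was between 0.370 and 1.57 without a Neu allele, 9.20, 6.93 and 2.37 in Neu-NT and 0.0105, 0.0164 and 0.0109 in Neu-NDL. Neither ratio overlapped between the 3 sets of libraries. Between Stard3 and Grb7 the balance differed less, with a ratio of 2.24, 1.63 and 0.684 in Neu-NT and 0.522 to 1.71 in the other 17 libraries. This did not hold for every pair of neighbors. In Neu-NT replicate 1, Med1 was at 573 and Grb7 at 679 CPM per kb, and in replicate 3 at 8.91 and 130. Reads of an introduced Neu can count on Erbb2 in both Neu models, so the ratios to Erbb2 are not those of the native genes alone. The ratios rest on the values that chose the genes and carry no test.

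**Figure D3:**
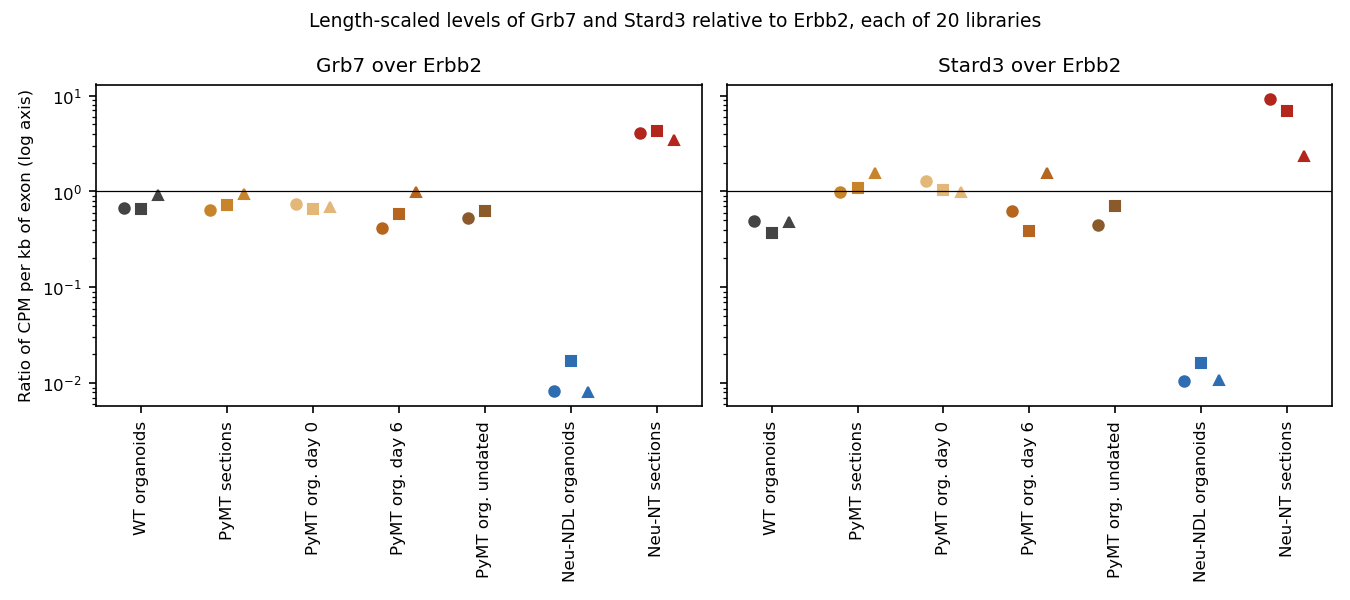
Ratio of Grb7 to Erbb2 (left) and of Stard3 to Erbb2 (right) in CPM per kb of exon (vertical log axis) in each of the 20 libraries by group; symbols are replicates 1, 2 and 3. All 3 Neu-NT libraries lie above 2 and all 3 Neu-NDL libraries below 0.02, on either side of the 14 libraries without a Neu allele.

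Over the 20 libraries the neighbors correlated more closely with each other than with Erbb2. Erbb2 also rose in Neu-NT but was highest in Neu-NDL, where no neighbor was called against WT organoids. Pearson's r of log2 CPM was 0.99 for Med1 with Cdk12, 0.98 for Pgap3 with Grb7 and 0.97 for Stard3 with Pgap3. The lowest between neighbors was 0.55, for Ppp1r1b with Tcap, and it was between 0.19 and 0.30 for Erbb2 with each neighbor. Without the Neu-NT libraries (n = 17) the values of Med1 with Cdk12, Pgap3 with Grb7 and Stard3 with Pgap3 fell to 0.55, 0.29 and 0.40. Neighbor pairs then ran from -0.31 (Ppp1r1b or Cdk12 with Tcap) to 0.79 (Ppp1r1b with Stard3). The neighbors were chosen on their Neu-NT values, and r of Erbb2 with the neighbors was not computed without the Neu-NDL libraries. The libraries share groups and batches of preparation are not known, so these are descriptions.

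Genes elsewhere that followed Erbb2 most closely over the 20 libraries were Tmppe (r = 0.884), Zfp42 (0.872), Bpifb4 (0.871), Sh2b3 (0.865) and Ptk2b (0.855). Sh2b3, an adaptor of cytokine and kinase receptors, ran from 56.8 to 75.5 CPM in Neu-NDL, was at 69.7, 67.5 and 41.2 CPM in Neu-NT and ran from 25.9 to 51.3 CPM in the other 14. Ptk2b, a focal adhesion family kinase, ran from 59.0 to 122 CPM in Neu-NDL, was at 78.1, 97.3 and 47.1 CPM in Neu-NT and ran from 25.4 to 53.1 CPM elsewhere. In both genes Neu-NDL and Neu-NT replicates 1 and 2 were above the rest and Neu-NT replicate 3 was not. Zfp42 was at most 1.28 CPM in any library, and its r without the Neu-NDL libraries was 0.017.

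Stard3 was followed most closely by Gm10451 (r = 0.963), Glb1l3 (0.963), Vmn2r72 (0.956), St3gal4 (0.951) and Adgrg7 (0.948). St3gal4, a sialyltransferase, was at 83.8, 53.9 and 23.0 CPM in Neu-NT replicates 1 to 3 and ran from 6.10 to 12.3 CPM in the other 17 libraries. Adgrg7, an adhesion receptor, was at 39.8, 25.3 and 0.518 CPM against at most 0.155 CPM. Glb1l3 and Vmn2r72 were at 0 outside Neu-NT and at most 4.64 CPM within it. Without the Neu-NT libraries r fell to 0.69 or below for each of the 5, so the likeness rests on those 3 libraries.

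Whether the neighbors also moved with an activated Neu that lies elsewhere in the genome was asked in the Neu-NDL organoids, against WT organoids after the same 6 days of culture. Of the 10 genes, Erbb2 alone passed edgeR's quasi-likelihood test at a Benjamini-Hochberg adjusted p under 0.05, where 4.52% of all 18698 genes did, and its level is the one described above. Pgap3 was at 27.6, 27.1 and 29.8 CPM in Neu-NDL and 28.2 ± 1.46 CPM on average, against 29.5 ± 2.22 CPM in WT organoids (SD, n = 3 each). Its log2 fold change was -0.07, with a 95% interval of -0.99 to 0.86. Grb7 was at 29.7, 49.1 and 44.9 CPM, with a log2 fold change of -0.14 (-1.18 to 0.90). Mien1 was at 18.9, 20.7 and 27.5 CPM (0.23, -0.95 to 1.41) and Med1 at 90.1, 96.6 and 92.2 CPM (0.18, -1.37 to 1.72). For each of these 4 genes the 2 groups overlapped. The fit shared its dispersion over all 20 libraries, including Neu-NT, where Med1 was at 5017, 3880 and 78.0 CPM. The intervals and calls from this fit, here and below, thus do not measure the spread in the groups compared alone.

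Stard3 was the neighbor with the clearest shift in Neu-NDL. It was at 40.1, 49.8 and 63.2 CPM against 30.5, 23.7 and 31.8 CPM in WT organoids, so all 3 libraries lay above all 3 controls, as for 17% of all tested genes. The difference came to 0.83 on the log2 scale (SE 0.65, 95% interval -0.56 to 2.22), with an edgeR adjusted p = 0.518. The call depended on which libraries entered the fit. Fitted on the 6 libraries compared, the edgeR adjusted p was 0.0425 at a log2 fold change of 0.86 (11.3% of all genes called). Without the 2 libraries that stood apart it was 0.0378 at 0.84 (14.5% called). Without the 3 Neu-NT libraries it was 0.18 at 0.86 (6.96% called). The fit over all 20 libraries called 4.52%. Basal and macrophage markers moved in the same comparison. The basal markers summed to 2225 to 2867 CPM in WT and 86.3 to 538 CPM in Neu-NDL organoids, and the macrophage markers to 13.1 to 27.8 and 124 to 298 CPM. None of either list was at 0 in these libraries, and their part in the differences between these groups was not tested.

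In PyMT tumor sections, too, Stard3 and Med1 were higher than in WT organoids. Stard3 was at 74.1, 51.3 and 118 CPM against 28.7 ± 4.31 CPM (SD, n = 3), and Med1 at 156, 113 and 137 CPM against 82.2 ± 11.1 CPM. For both genes, and for Ikzf3, every section lay above every WT library, as for 23.2% of all tested genes. Ikzf3 had 64, 1 and 10 reads in sections 1 to 3 and 0, 0 and 1 in WT organoids. T and NK cell markers were also higher: the 5 markers summed to 8.09, 3.07 and 1.82 CPM in sections 1 to 3. In WT organoids they summed to at most 0.154 CPM, with 2 to 5 of the 5 at 0. Section 2 thus had more of this marker RNA than section 3 but fewer Ikzf3 reads. The 4 B cell markers overlapped, at 1.09, 0.653 and 0.158 CPM in the sections and 0.723, 0.299 and 2.61 CPM in WT organoids. Up to 2 of these were at 0 in both groups. Basal markers summed to 50.9 to 239 CPM in the sections against 2225 to 2867 CPM in WT organoids, macrophage markers to 213 to 315 against 13.1 to 27.8 CPM and fibroblast markers to 1857 to 5838 against 414 to 732 CPM, with none of the 3 lists' markers at 0. The part of these cell types in the levels of Stard3, Med1 and Ikzf3 was not tested. Erbb2 (68.5 to 110 against 90.3 to 98.0 CPM), Pgap3 (26.6 to 40.3 against 27.0 to 31.3 CPM) and Grb7 (31.7 to 66.1 against 38.8 to 57.5 CPM) overlapped.

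No gene of the 10 was called in that comparison by edgeR over the 20 libraries or by DESeq2, where edgeR called 12.5% of all genes, and 2 had an unadjusted p under 0.05 (Stard3 and Ikzf3), as did 30.3% of all genes. The log2 fold change of Stard3 was 1.5 (SE 0.66, 95% interval 0.09 to 2.91, adjusted p = 0.141) and that of Med1 0.72 (SE 0.73, adjusted p = 0.539). The adjusted p of Ikzf3 was 0.061. The calls depended on which libraries entered the fit. With the 3 Neu-NT libraries left out, all 3 genes were called by edgeR, at an adjusted p = 0.0211 for Stard3, 0.0174 for Med1 and 0.0247 for Ikzf3, with log2 fold changes of 1.51, 0.73 and 5.87, where 14.4% of all genes were called. Genotype, tissue and culture differ together here and cannot be told apart.

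The PyMT organoids after 6 days of culture stood between. Stard3 ran from 33.7 to 114 CPM with a median of 44.4 CPM over the 5 libraries, at a log2 difference from WT organoids of 0.83 (SE 0.60, edgeR adjusted p = 0.463). Its highest value came from the library titled PyMT organoids day 6 replicate 3. Erbb2 ran from 95.2 to 146 CPM, overlapping WT, with a log2 fold change of 0.23 (95% interval -0.58 to 1.04). None of the 10 genes was called by edgeR or DESeq2 (3.89% of all genes by edgeR), and 1, Tcap, had an unadjusted p under 0.05, as did 20.6% of all genes. Set against the same PyMT organoids, Neu-NDL organoids differed in Erbb2 alone by edgeR, where 7.12% of all genes were called. Stard3 had a log2 fold change of 0.00 there (95% interval -1.24 to 1.24) and Grb7 of -0.09 (-1.02 to 0.85).

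**Figure D4:**
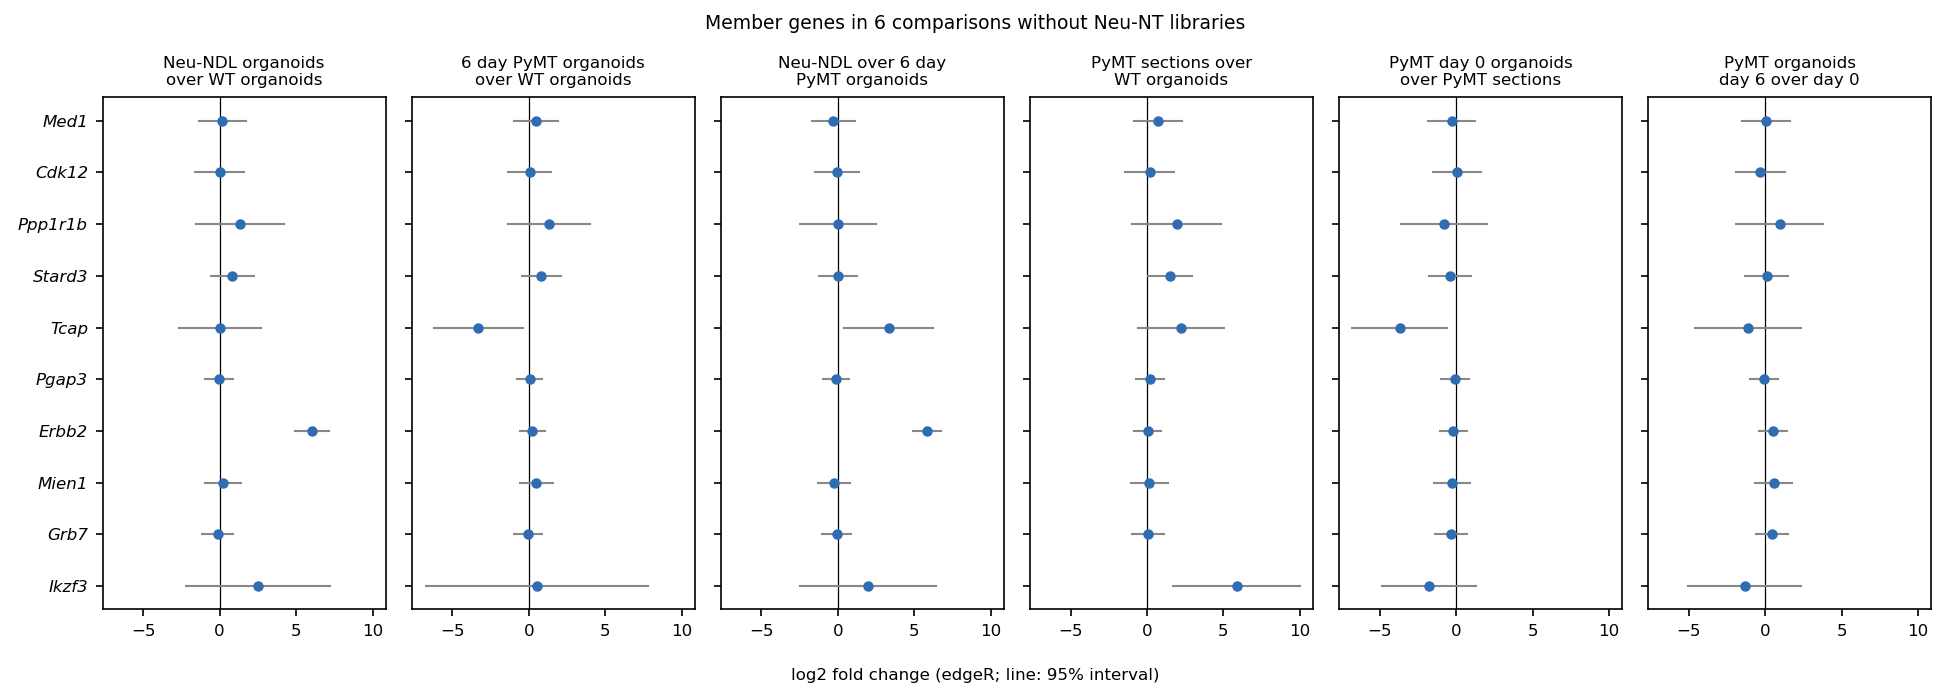
Log2 fold change (horizontal axis) of each gene (rows) in the 6 comparisons that contain no Neu-NT library, from edgeR over all 20 libraries; points are estimates and lines 95% intervals. Erbb2 stands far to the right in both Neu-NDL comparisons, as described, and Stard3 is to the right of 0 in all comparisons with WT organoids, with an interval that leaves out 0 in the PyMT sections only.

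None of these genes was called when PyMT organoids were prepared or cultured. Between PyMT sections and freshly prepared PyMT organoids no gene of the 10 was called by edgeR or DESeq2 (0.444% of all genes by edgeR), and 1, Tcap, had an unadjusted p under 0.05, as did 6.95% of all genes. From day 0 to day 6 of culture none was called by either tool and none had an unadjusted p under 0.05, where edgeR called 0.626% of all genes and 15.1% had an unadjusted p under 0.05. Erbb2 was at 73.7, 77.0 and 102 CPM at day 0 and at 104, 146 and 108 CPM at day 6, and the log2 difference was 0.50 (SE 0.42, 95% interval -0.39 to 1.40, edgeR adjusted p = 0.631). For Stard3, Ppp1r1b and Mien1 the direction depended on the library titled PyMT organoids day 6 replicate 3. Their log2 fold changes were 0.08, 0.94 and 0.54 with it and -0.59, -1.28 and -0.36 without it.

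Tcap was highest where skeletal muscle marker RNA was highest, except in the Neu-NT sections. Outside Neu-NT its highest values were 7.84 CPM in PyMT section 2, 1.47 CPM in Neu-NDL organoid 1 and 1.29 CPM in WT organoid 3. The same libraries had the highest summed level of the 7 skeletal muscle markers, at 646, 200 and 236 CPM. In Neu-NT replicates 1 and 2, Tcap was at 18.9 and 16.2 CPM while the muscle markers summed to 2.95 and 2.97 CPM, with 1 of the 7 at 0. In Neu-NT replicate 3 the values were 0.932 and 15.3 CPM. Against WT organoids, Tcap in the 6 day PyMT organoids differed by -3.29 on the log2 scale (SE 1.38, edgeR adjusted p = 0.19), and the muscle markers moved with it, from 57.7 to 236 CPM in WT to 2.88 to 11.1 CPM. Without WT organoid 3 the difference was -2.11. Against the same PyMT organoids, Tcap in Neu-NDL had a log2 fold change of 3.31 (adjusted p = 0.144 by edgeR and 0.0484 by DESeq2), and of 1.41 without Neu-NDL organoid 1. From sections to day 0 organoids its log2 fold change was -3.70 (adjusted p = 0.582 by edgeR), with markers at 2.50 to 646 CPM and 2.49 to 8.64 CPM, and without PyMT section 2 it was -0.43. The part of muscle tissue in these 3 differences was not tested.

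Ikzf3 was likewise set beside T and NK cell markers. In Neu-NT replicate 2 it was at 102 CPM with markers summing to 2.66 CPM. Neu-NT replicate 3 had the most marker RNA of all libraries, at 20.8 CPM, and Ikzf3 at 2.54 CPM. The 4 B cell markers summed to 0.832, 0.631 and 1.76 CPM in Neu-NT replicates 1 to 3 and to at most 6.38 CPM elsewhere.

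**Figure D5:**
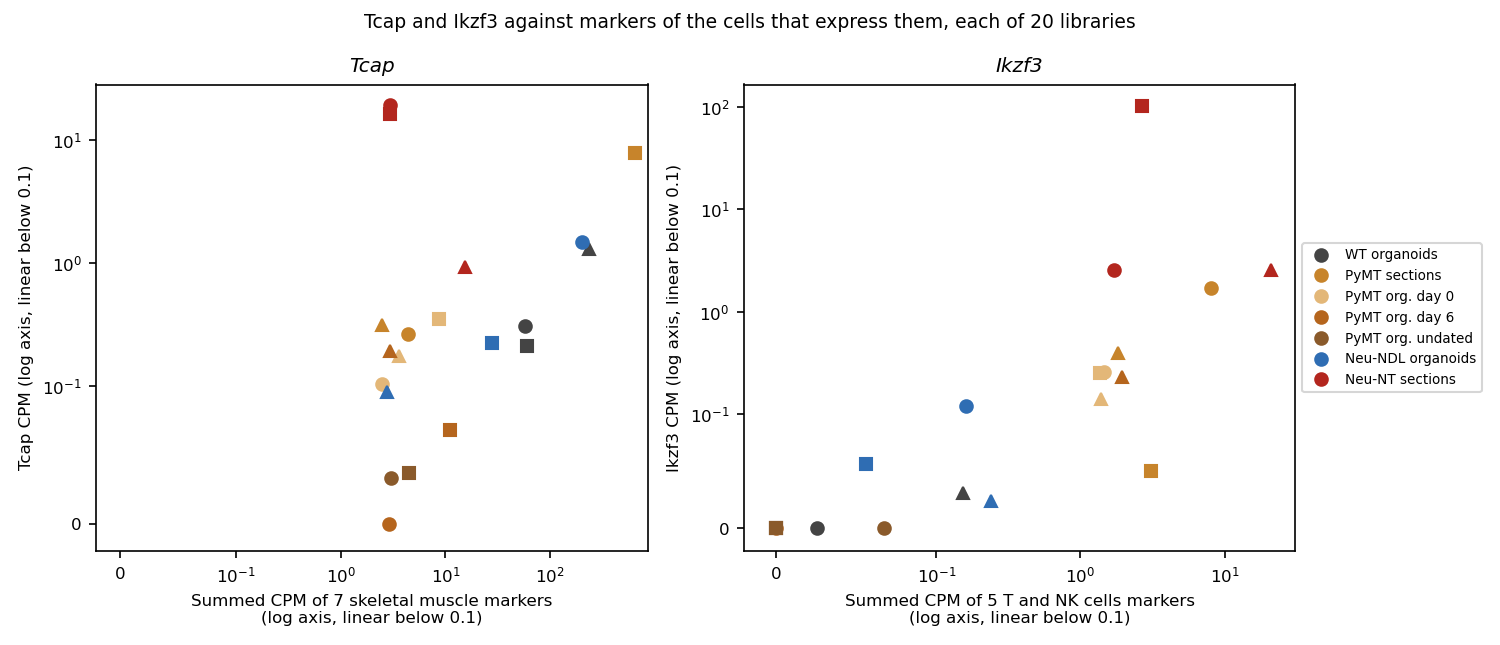
Left, Tcap against the summed level of 7 skeletal muscle markers; right, Ikzf3 against the summed level of 5 T and NK cell markers, all in CPM on log axes that are linear below 0.1, one point per library (colors are groups; circle, square and triangle are replicates 1, 2 and 3). Neu-NT replicates 1 and 2 stand above the other libraries for Tcap at low muscle marker levels, and Neu-NT replicate 2 stands at 102 CPM of Ikzf3 with 2.66 CPM of marker RNA.

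Other genes of the ErbB pathway were taken from a list of 51 by role, of which 50 were tested. Against WT organoids, none of them rose and 3 fell in the Neu-NDL organoids by edgeR (2.47% of all genes were called higher and 2.06% lower), and the median log2 fold change of 0.03 was near the 0.02 of all genes. Areg, an EGF receptor ligand that acts in mammary duct growth, was at 5.35, 4.27 and 4.98 CPM against 45.7, 62.6 and 84.4 CPM in WT organoids. The log2 difference was -3.72 (SE 0.81) and the edgeR adjusted p = 0.0202. Gab1, a docking adaptor, fell from 71.2, 83.2 and 78.5 CPM to 40.1, 43.9 and 42.0 CPM (log2 fold change -0.89, SE 0.16, adjusted p = 0.00924 by edgeR). Lrig3, of a family of ErbB regulators, fell from 22.8, 28.4 and 26.0 to 16.0, 14.7 and 8.20 CPM (-0.99, SE 0.23, adjusted p = 0.0261 by edgeR). The groups did not overlap for any of the 3, and the share of all genes that lay lower without overlap was not counted. Hbegf, another EGF receptor ligand, was at 10.5, 13.3 and 18.6 CPM against 3.64, 4.46 and 3.63 CPM and missed the threshold (adjusted p = 0.0653 by edgeR). With any 1 WT library or Neu-NDL organoid 2 or 3 left out, Gab1 was the only call, where 0.619% to 0.984% of all genes were called. Once the pair of libraries that stood apart was left out, 5 genes rose and 4 fell, where 8.40% of all genes were called higher and 6.12% lower. The basal and macrophage markers given for Stard3 moved in this comparison too, and their part in these calls was not tested.

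In Neu-NT sections against PyMT sections, 3 pathway genes were higher and 9 lower by edgeR (5.13% and 4.57% of all genes), and the median log2 fold change was 0.06 against 0.01 over all genes. Of the 3 partner receptors 2 were lower. Egfr was at 54.8, 57.0 and 48.6 CPM against 191, 110 and 215 CPM (log2 fold change -1.69, SE 0.37, adjusted p = 0.0124 by edgeR). Erbb4 had 4, 0 and 0 reads against 107, 234 and 109 (adjusted p = 0.00404 by edgeR). Erbb3, the receptor that pairs with ErbB2 but has little kinase activity, was on average at 295 against 165 CPM. All 3 Neu-NT sections were above all PyMT sections, as for 12.9% of all tested genes. It missed the threshold (log2 fold change 0.84, SE 0.28, adjusted p = 0.0649 by edgeR).

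Ligands went both ways in the same comparison. Hbegf rose to 42.2, 71.3 and 92.4 CPM from 6.86, 5.07 and 7.56 CPM (log2 fold change 3.40, SE 0.58, adjusted p = 0.0035 by edgeR), and Areg to 4.61, 8.11 and 7.77 from 0.454, 1.00 and 1.70 CPM (2.71, SE 0.81, adjusted p = 0.0448). Nrg1, a neuregulin, was at 1.74, 1.62 and 0.414 CPM against 8.30, 5.23 and 68.9 CPM (-4.43, SE 1.08, adjusted p = 0.0191 by edgeR), and Egf at 2.80, 3.02 and 1.40 against 15.0, 16.7 and 41.3 CPM (-3.33, SE 0.83, adjusted p = 0.0209). When single libraries were left out, the log2 fold change of Nrg1 ran from -4.89 to -2.42 and that of Egf from -3.59 to -2.72. Among adaptors and effectors, Grb10, of the same adaptor family as Grb7, fell to 7.41, 3.79 and 9.16 CPM from 31.1, 90.9 and 73.3 CPM (-3.26, SE 0.56, adjusted p = 0.00354 by edgeR), and Akt1 rose from 162, 143 and 169 to 345, 332 and 275 CPM (1.01, SE 0.15, adjusted p = 0.00138). The other calls were Pik3r1, Braf, Lrig3 and Ptpn18, all lower. Leaving out Neu-NT replicate 1 or 2 left 6 of the 12 calls, Egfr, Erbb4, Hbegf, Grb10, Akt1 and Lrig3. These fits called 4.14% and 4.58% of all genes. With the pair of libraries that stood apart left out, 11 pathway genes rose and 13 fell, where 11.6% of all genes were called higher and 11.7% lower. Basal markers summed to 30.4 to 1648 CPM in the Neu-NT and 50.9 to 239 CPM in the PyMT sections, and fibroblast markers to 262 to 2643 and 1857 to 5838 CPM. Their part in these calls was not tested.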

How the data were processed

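Polyadenylated RNA was extracted with TRIzol and made into TruSeq libraries, per the labels' protocols. The submitters' processing notes name CASAVA, FastQC, STAR, HTSeq, DESeq2 and mm10. The deposited values are whole-number read counts per gene, 1 table per library, with 45318 versioned Ensembl IDs. Annotation release, strand setting and counting mode are not given in the sources used here. Rows that name no gene were left out. Reads on no feature came to 5.60 to 12.33% and ambiguous reads to 4.68 to 7.39% of the gene, no feature and ambiguous reads together. Positions came from GENCODE M21 (44671 IDs matched) and promoter sequences from RefSeq.

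Counts from all 20 libraries entered 1 edgeR 4.0.16 quasi-likelihood fit (TMM scaling, filterByExpr, robust, 1 mean per group, 13 residual degrees of freedom, common dispersion 0.193, 18698 genes). A gene was called at a Benjamini-Hochberg adjusted p below 0.05 over all tested genes. The 6 day PyMT contrast weighted day 6 and undated organoids equally. SE is the size of the log2 fold change over the square root of F. Log2 CPM used a prior count of 2, and ratios of single libraries used the mean log2 CPM of a group. The procedure was tested on simulated data. Alternatives were no count filter, RLE size factors, DESeq2 1.42.0, a replicate block, only the groups compared, leaving out each library, leaving out the 2 libraries that stood apart, and summing Neu-NT replicates 1 and 2. Chosen after seeing the data were fits without the 3 Neu-NT libraries and without the PyMT section and day 6 organoid libraries numbered 3.

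The 10 genes, the pathway and marker lists and the tests were chosen with earlier results of these data known. The text names all 10 genes, tested genes of the interval, 5 protein coding genes on each side, the 5 genes most like Erbb2 and Stard3 over the 20 libraries, and called pathway genes, with Hbegf in Neu-NDL and Erbb3 named after their values were seen. All same-numbered pairs of 2 groups had deviations from the group means correlated above 0.1, the minimum used for pairing, only in day 0 and day 6 PyMT organoids (r over genes 0.287, 0.428 and 0.317). The labels state no pairs.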

Additional observations from a re-analysis of the deposited data

Results flagged for a closer look

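Of the 10 genes, 3 had a library far from the other 4 among the 5 PyMT organoid libraries cultured for 6 days, with a gap to the nearest library that exceeded Dixon's critical value of 0.710. Chance does so in about 1 in 20 groups. In each case the high library was the one titled PyMT organoids day 6 replicate 3, which resembles PyMT tumor section replicate 3 in its whole profile. Stard3 was at 114 CPM there and between 33.7 and 45.5 CPM in the other 4. Ppp1r1b was at 26.4 CPM against 1.26 to 4.46 CPM. Ikzf3 was at 0.233 CPM, from 6 reads, against 0 in the other 4. With the other 4 at 0, any read would exceed the critical value, so the chance of 1 in 20 does not apply to Ikzf3. PyMT tumor section replicate 3 had 118, 20.4 and 0.396 CPM of the same genes.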

How the results depend on the processing

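The counts of called genes depended mostly on which libraries entered the fit. Among the 10 genes, Neu-NDL against WT organoids gave 1 call over all 20 libraries, 2 with only the groups compared and 2 without the 2 libraries that stood apart, Stard3 being the addition. The shares of all tested genes called in these fits were 4.52%, 11.3% and 14.5%. PyMT sections against WT organoids gave 0, and 2 with only the groups compared, 3 without the libraries that stood apart, 3 without the Neu-NT libraries and 1 with Neu-NT replicates 1 and 2 summed. In the same order, 12.5%, 28.8%, 27%, 14.4% and 11.7% of all genes were called. Neu-NDL against 6 day PyMT organoids gave 1, and 2 with DESeq2, where 7.12% and 14.1% of all genes were called. ErbB pathway calls in Neu-NDL against WT organoids went from 3 to 6 with DESeq2, 6 with only the groups compared, 9 without the libraries that stood apart, and 1 to 4 when single libraries were left out. The share of all genes went from 4.52% to 11.1%, 11.3%, 14.5%, and 0.619% to 6.95% in the same order. In Neu-NT against PyMT sections they went from 12 to 7 with only the groups compared, 24 without the libraries that stood apart, 7 with Neu-NT replicates summed, and 7 to 16 when single libraries were left out. There the share of all genes went from 9.7% to 2.05%, 23.2%, 4.35%, and 3.89% to 16.6%. The causes were not tested.

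When single libraries were left out, small log2 fold changes crossed 0 in Neu-NDL against WT organoids for Grb7 (-0.28 to 0.07) and Pgap3 (-0.13 to 0). In PyMT organoids from day 0 to day 6 they did for Stard3 (-0.59 to 0.33), Ppp1r1b (-1.28 to 1.44) and Mien1 (-0.36 to 0.86). Without the libraries that stood apart these 3 were -0.56, -1.26 and -0.33. With the replicate number as a block, Neu-NDL against WT organoids kept 1 call among the 10 genes and day 6 against day 0 kept 0. The shares of all genes were 5.01% and 0.497%. Pathway calls with the block were 4 and 11, where 5.01% and 9.42% of all genes were called. The block changed no other call beyond 1.5 times. The median neighbor log2 ratio in Neu-NT was 4.34 to PyMT sections (2.96 to 5.37 over the alternatives) and 4.76 to WT organoids (4.27 to 5.75). Tcap and Ikzf3 had few reads outside Neu-NT, and their differences are limited by depth.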
